A study of Mus musculus with 3 samples.

Results

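The genes described here are 9 that mark or run excitatory neurons of the cortex: the basic helix-loop-helix (bHLH) factors Neurod1, Neurod2, Neurod6 and Bhlhe22, their dimer partner Tcf4, the homeobox factor Emx1, the vesicular glutamate transporters Slc17a7 and Slc17a6, and the kinase Camk2a. They were chosen by name. Each was followed through its gene body plus 20 kb on either side, in the coordinates of mm10, and those 9 windows held 179 of the 204313 accessible regions of the series. The data are peak lists from ATAC-seq, which maps open chromatin by where a transposase can insert, in sorted mouse brain neurons. Callosal projection neurons (CPN), which link the hemispheres, gave 2 libraries, and corticospinal motor neurons (CSMN), which project to the spinal cord, gave 1. Each library came from 50000 viable sorted cells, described in the labels as a biological replicate. The sources used here do not state genotype, strain, age, any treatment, or the marker or tracer behind the sorts.

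bHLH factors bind DNA as dimers at the short motif CANNTG, the E-box. The NeuroD factors pair with broadly expressed E proteins such as Tcf4 and drive neuronal differentiation and maturation in the cortical excitatory lineage, and Emx1 is made in the progenitors of that lineage and kept in its neurons. Slc17a7 and Slc17a6 encode VGLUT1 and VGLUT2, which load glutamate into synaptic vesicles, VGLUT1 being the usual form of the mature cortex and VGLUT2 of the thalamus and other subcortical sites. Camk2a encodes the alpha subunit of calcium/calmodulin-dependent kinase II, an abundant enzyme of excitatory synapses.

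The stretches just before the transcription start are shown for 5 of these genes, because the 3 lists differed there: the Neurod2 start was covered by a peak in CPN only, the Neurod1, Neurod6 and Slc17a6 starts by a peak in all 3 lists, and the Slc17a7 start by a weak peak in 1 list. Each line gives the 250 bases before the listed start, 5′ to 3′ on the strand of the gene, from RefSeq on GRCm38.p6 (the assembly named mm10). Capitals mark every E-box (CANNTG, which reads the same on both strands). The Neurod1 window is chr2:79456637-79456886 on the minus strand, Neurod2 is chr11:98329646-98329895 on the minus strand, Neurod6 is chr6:55681264-55681513 on the minus strand, Slc17a7 is chr7:45163671-45163920 on the plus strand, and Slc17a6 is chr7:51621580-51621829 on the plus strand.
Neurod1: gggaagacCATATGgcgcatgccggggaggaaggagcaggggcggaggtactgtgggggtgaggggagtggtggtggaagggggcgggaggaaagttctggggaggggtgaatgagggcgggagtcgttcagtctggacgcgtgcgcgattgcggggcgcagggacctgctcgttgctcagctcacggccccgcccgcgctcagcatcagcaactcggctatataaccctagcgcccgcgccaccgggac
Neurod2: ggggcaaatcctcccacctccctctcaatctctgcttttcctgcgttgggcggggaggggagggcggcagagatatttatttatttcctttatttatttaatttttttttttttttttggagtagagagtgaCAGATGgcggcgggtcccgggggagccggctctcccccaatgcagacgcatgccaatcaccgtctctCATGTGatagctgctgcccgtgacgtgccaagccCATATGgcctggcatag
Neurod6: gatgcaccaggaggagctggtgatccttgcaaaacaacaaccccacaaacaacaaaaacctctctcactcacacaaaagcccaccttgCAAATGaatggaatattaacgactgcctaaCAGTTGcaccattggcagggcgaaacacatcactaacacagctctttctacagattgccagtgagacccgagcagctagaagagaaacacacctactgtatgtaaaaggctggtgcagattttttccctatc
Slc17a7: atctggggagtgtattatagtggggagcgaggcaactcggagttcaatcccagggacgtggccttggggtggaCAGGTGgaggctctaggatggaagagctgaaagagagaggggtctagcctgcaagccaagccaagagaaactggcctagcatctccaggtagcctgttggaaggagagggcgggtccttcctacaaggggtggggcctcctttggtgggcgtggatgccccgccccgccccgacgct
Slc17a6: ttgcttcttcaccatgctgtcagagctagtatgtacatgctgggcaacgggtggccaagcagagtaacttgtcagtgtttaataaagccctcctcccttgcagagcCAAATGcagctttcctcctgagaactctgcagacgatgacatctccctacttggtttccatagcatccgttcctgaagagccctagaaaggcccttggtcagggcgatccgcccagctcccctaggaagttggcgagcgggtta

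The Neurod2 stretch held 3 E-boxes, Neurod6 held 2, and Neurod1, Slc17a7 and Slc17a6 held 1 each. The 250 bases before a second listed start of Slc17a6, not printed, held 2 E-boxes, CAGATG at -205 and CATATG at -42. Those before the Emx1 start, also not printed, held 1 E-box, CATGTG at -88. Among the 32851 RefSeq promoters of the same length 66.2% had at least 1, the median was 1, and 96.2% had 3 or fewer. No E-box letters were common to all 5 genes: CATATG stood at -242 in Neurod1 and at -17 in Neurod2, counted from the start site to the first base, and CAAATG stood at -162 in Neurod6 and at -144 in Slc17a6. Searches on both strands also covered CAGATG (an E-box, found in 14.4% of all promoters), CAGCTG (an E-box, 13%), CACGTG (an E-box, 6.02%), TGACGTCA (1.55%), TATAAA (12.4%), CCAAT (33.8%) and GGGCGG (32.7%). Neurod2 had CAGATG at -118 and 2 copies of CCAAT, at -82 and -66, and Neurod1 had 4 copies of GGGCGG. Neither motif was limited to these genes. CCAAT also stood at -122 in Neurod6. GGGCGG also stood at -203 and -189 in Neurod2, at -36 in Slc17a6, and at several places in Slc17a7 and Emx1. A match is a run of letters and not a bound site.

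Peaks of the 3 lists that overlapped by at least 1 bp were merged into a region, and each region was classed by the lists with a peak in it. Peaks could thus share a region through another peak without overlapping each other. A CPN-only region held peaks of CPN 1 and CPN 2 without a CSMN peak, and a CSMN-only region held a peak of that list alone. The lists were of unequal length, at 134018 (CPN 1), 158779 (CPN 2) and 98067 (CSMN) peaks, and with no read totals in the sources used here the depth is unknown. A missing peak therefore says that none was called and not that the chromatin was closed, and in sorted populations a site open in fewer cells cannot be told apart from one less open in each cell. Fold enrichment at the summit is the authors' value for each peak, and its median was 3.82 (CPN 1), 3.68 (CPN 2) and 2.86 (CSMN), so folds were ranked within a list and not compared across lists. CSMN had 1 library and no test between the cell types was made, and the gap between CPN 1 and CPN 2 is the spread between replicates.

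All 9 genes had regions found in both cell types. At least 1 CPN-only region was found at all 9, against 57.6% of the windows around protein-coding genes. A CSMN-only region was found at 3 of the 9, against 41.2% of those windows. Over the 9 windows 62 of the 179 regions (34.6%) had a peak in all 3 lists, against 30.6% of all regions of the series. CPN-only regions numbered 46 (25.7%, against 19.4% in the series), and CSMN-only regions numbered 6 (3.35%, against 11.8%). CPN-only regions thus took a larger share here than in the series and CSMN-only regions a smaller one. The share common to all lists was 38.3% here and 38.1% in the series at a −log10 q of at least 5, and 41.1% in both without CPN 2, so no difference is read from it. The 145402 regions in the same windows around any protein-coding gene lay nearer to the series than to these genes, with 32% in all 3 lists, 19.6% CPN-only and 9.61% CSMN-only. The remaining 65 regions were in CPN 1 alone (24), in CPN 2 alone (36), or in CSMN with a single CPN list (5). Tcf4, by far the longest gene, supplied 92 of the 179 regions, of which 25% were in all 3 lists, and the other 8 genes gave 39 in all 3 lists (44.8%), 20 CPN-only (23%) and 4 CSMN-only (4.6%). When each list was cut to its 98067 strongest peaks the counts were 29 CPN-only (23.2%) and 15 CSMN-only (12%), and the series then had 16% and 22.2%. With a CPN library left out, the CPN-only class rested on 1 list. Without CPN 2, 73 of 146 regions were CPN-only (50%, against 41% in the series) and 13 CSMN-only (8.9%, against 17.9%). Without CPN 1, 87 of 162 were CPN-only (53.7%, against 47.1%) and 8 CSMN-only (4.94%, against 15.9%).

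**Figure D1:**
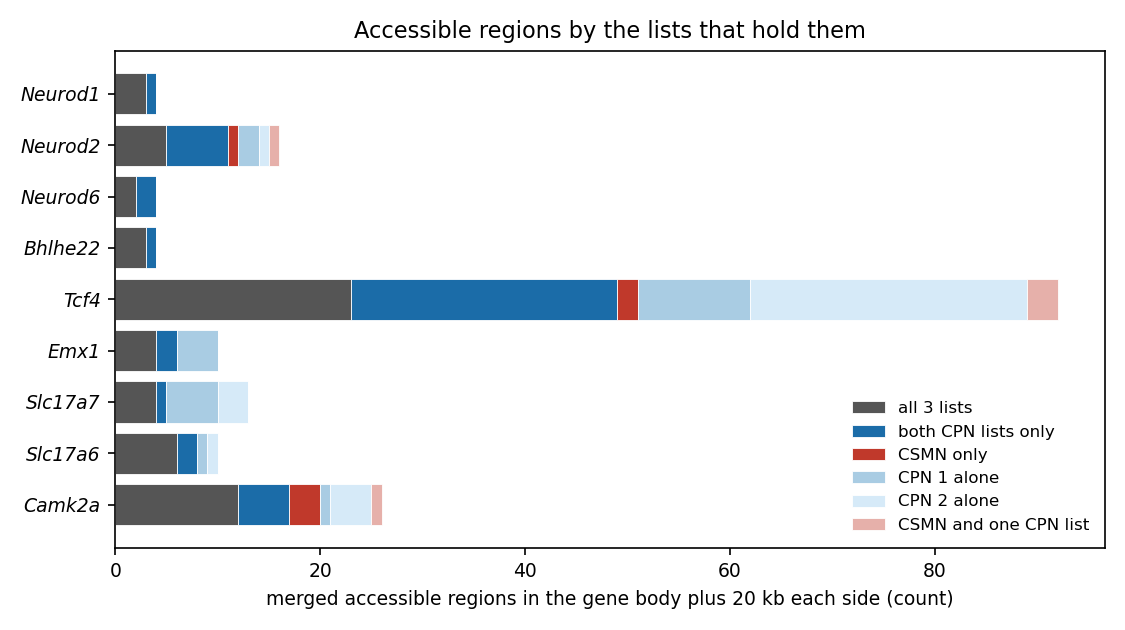
Number of merged accessible regions in the gene body plus 20 kb on either side (horizontal axis, count) for each of the 9 genes, coloured by the lists that held a peak in the region. Tcf4 has 92 regions and Neurod1, Neurod6 and Bhlhe22 have 4 each; CSMN-only regions (red) appear at Neurod2 (1), Tcf4 (2) and Camk2a (3).

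CPN-only regions were more often called with a low q than CSMN-only regions, as the CPN lists were in general: 72.4% of peaks in CPN 1, 65.4% in CPN 2 and 55.2% in CSMN had a −log10 q of at least 5, where q is the authors' p-value corrected for multiple tests. Of the 46 at these genes, 31 (67.4%) reached that level in both CPN lists, and the same held for 60.3% of all CPN-only regions. None of the 6 CSMN-only regions did, against 14.4% in the series, and their −log10 q ran from 1.99 to 4.05. A CPN-only region was found in 57.6% of the 21887 windows around protein-coding genes and a CSMN-only region in 41.2%.

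Accessible regions were dense at some of these genes and not at others. Neurod2 had 36.2 regions per 100 kb, at or above 99.8% of protein-coding genes, Camk2a had 25.3 (95.5%), Slc17a7 had 24.9 (95.1%) and Tcf4 had 23.9 (93.6%). Emx1 followed with 17.7 per 100 kb and Slc17a6 with 11.2, near the median over all genes of 10.5. The other 3 bHLH genes lay below that median, with 9.09 at Neurod1, 9.21 at Neurod6 and 9.26 at Bhlhe22, so the small NeuroD genes did not share a density. Other protein-coding genes lay in the dense windows: Gm33099 and Ppp1r1b beside Neurod2, 5 genes beside Slc17a7, and Arsi and Slc6a7 beside Camk2a. No region fell in the windows of more than 1 of the 9 genes.

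Strongest here means the highest fold. By −log10 p another region came first at Bhlhe22 and Camk2a in CSMN, at Emx1 in both CPN lists and at Slc17a6 in CPN 2.

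Starts were the first place to compare the genes. The promoter table listed a start site for Neurod1, Neurod2, Neurod6, Emx1, Slc17a7 and Slc17a6, and for Bhlhe22, Tcf4 and Camk2a a peak near either end of the gene was taken instead. Within 1 kb, 8 of the 9 genes had a CPN 1 peak, all 9 a CPN 2 peak and 8 a CSMN peak. Over all protein-coding genes 69.2%, 70.3% and 66.7% had a peak that near to a gene end in CPN 1, CPN 2 and CSMN. The exception was Slc17a7. Of the 11819 listed start sites with a peak in both CPN lists within 1 kb, 3.78% had none in CSMN, and 0 of these genes were among them.

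**Figure D2:**
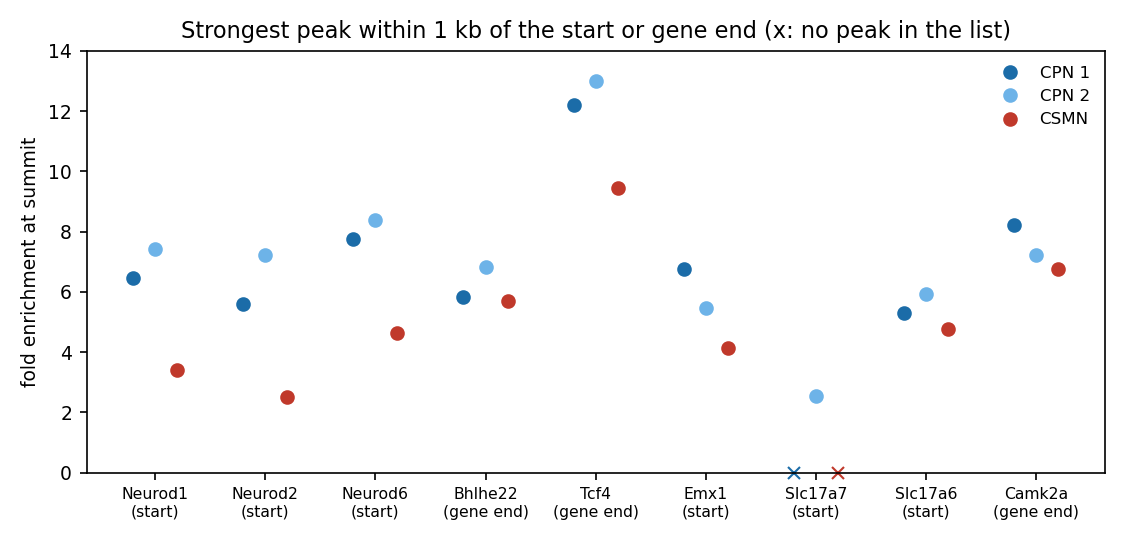
Fold enrichment at the summit of the strongest peak within 1 kb of the transcription start, or of a gene end where no start was listed, in CPN 1, CPN 2 and CSMN (vertical axis, authors' fold). Points are single libraries and a cross marks a list with no peak; Tcf4 is highest with 12.2, 13 and 9.45, and Slc17a7 has a peak in CPN 2 alone, at 2.55.

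Neurod1 acts in newly born excitatory neurons, and its gene occupies chr2:79452637-79456636 on the minus strand. It had 4 regions, 3 of them in all 3 lists. The strongest in every list lay within the gene at chr2:79453913-79454697, its summit 2347 bp from the start, with folds of 8.97 (CPN 1), 8.51 (CPN 2) and 6.91 (CSMN). The start itself was covered by chr2:79456556-79457020, with folds of 6.47, 7.41 and 3.4. Ranked among the 62435 regions common to all 3 lists, from 0 for the weakest to 100, the region within the gene stood at 69.6 and 65.5 in CPN and higher, at 81.5, in CSMN. The start region stood at 51.7 and 58 in CPN and lower, at 45.7, in CSMN. The pair thus differed from CPN in opposite directions. A broad region of 1561 bp, 2467 bp upstream of the gene, had folds of 3.47, 3.43 and 2.96. It ranked at 14.4 and 11.5 in CPN and at 33.4 in CSMN, 20.4 points above the CPN mean, the widest difference at the gene. These values came from separate summits, at position 79460335 in CPN 1, 79460260 in CPN 2 and 79459449 in CSMN. The ranks therefore do not compare a single site. CPN 2 had another peak in the region, with its summit at 79459351 and a fold of 2.9. The single CPN-only region, chr2:79450766-79450931, lay 1706 bp past the 3′ end with folds of 3.09 and 3.88.

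Neurod6, a factor of postmitotic cortical pyramidal neurons, also had a start region and a stronger region, here past its 3′ end. Its gene lies at chr6:55677818-55681263 on the minus strand. The start region chr6:55681039-55681547 had folds of 7.75 (CPN 1), 8.4 (CPN 2) and 4.63 (CSMN), and it held both E-boxes of the printed stretch in every list. The strongest region, chr6:55676461-55677287, lay 531 bp past the 3′ end, with folds of 8, 8.75 and 6.79. Both common regions ranked higher in CSMN than in either CPN list, the start region by 2.04 points over the CPN mean, less than the gap of 2.67 between the CPN lists, and the 3′ region by 15.7 against a gap of 3.16. By the authors' −log10 p, 1 of the pair ranked higher in CSMN and 1 lower. The CPN-only regions were upstream, at chr6:55690140-55690415 (3.59 and 4.09) and, 19218 bp from the gene, at chr6:55700481-55700938 (4.86 and 4.97).

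Neurod2, which acts in the maturation and synapse formation of cortical excitatory neurons, had 6 CPN-only regions of 16, and 1 of them lay over its start. Its gene lies at chr11:98325415-98329645 on the minus strand. The region over the start, chr11:98329386-98329732, had folds of 5.6 (CPN 1) and 7.21 (CPN 2), with −log10 q of 33.4 and 47.8, and no CSMN peak. In the stretch printed above, the E-boxes at -51 and -17 and both copies of CCAAT lay inside the CPN peaks, and the E-box at -118 lay upstream of them. The nearest CSMN peak, chr11:98328661-98328904, had its summit 833 bp into the gene and a fold of 2.52, and CPN 2 had a peak of 2.45 in the same place. It lies within 1 kb, so Neurod2 still counts as a gene with a CSMN peak near its start.

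A comparison of start sites covered by a peak, chosen after these values were seen, put this region in context. The start was covered in both CPN lists at 5 of these genes, Neurod1, Neurod2, Neurod6, Emx1 and Slc17a6, and Neurod2 was the 1 not covered in CSMN. Over all genes, 4.26% of the 10752 start sites covered in both CPN lists were not covered in CSMN. Those had a median lower CPN −log10 q of 11.6, against 158 for starts covered in all 3 lists, so the Neurod2 peaks were strong for that class and weak for start sites at large. At a lower CPN −log10 q of at least the Neurod2 value of 33.4, 84 of 9301 (0.903%) were not covered in CSMN. Among all 39731 CPN-only regions the Neurod2 start region took rank 761 by that lower q (the top 1.92%) and rank 2817 by the lower of its folds (the top 7.09%).

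Away from its start, Neurod2 had 5 regions common to all lists, all upstream. The strongest in CPN 1, chr11:98348438-98349069, had folds of 8.49, 6.46 and 3.62 and overlapped Ppp1r1b, the gene of the dopamine signalling protein DARPP-32. The strongest in CPN 2 and CSMN was chr11:98342522-98342998, with 7.34, 7.98 and 6.04. The CSMN rank was above both CPN ranks at 2 of the 5 regions and below both at 3. After the start region, the strongest CPN-only region was chr11:98313800-98314292, 11123 bp past the 3′ end, with folds of 4.29 and 4.3. A further CPN-only region lay 254 bp upstream of the start, with 2.93 and 2.98. The CSMN-only region, chr11:98336323-98336470, was weak, with a fold of 2.38 and a −log10 q of 3.46, and overlapped Gm33099. In lists of equal length Neurod2 had 3 CPN-only and 2 CSMN-only regions.

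**Figure D3:**
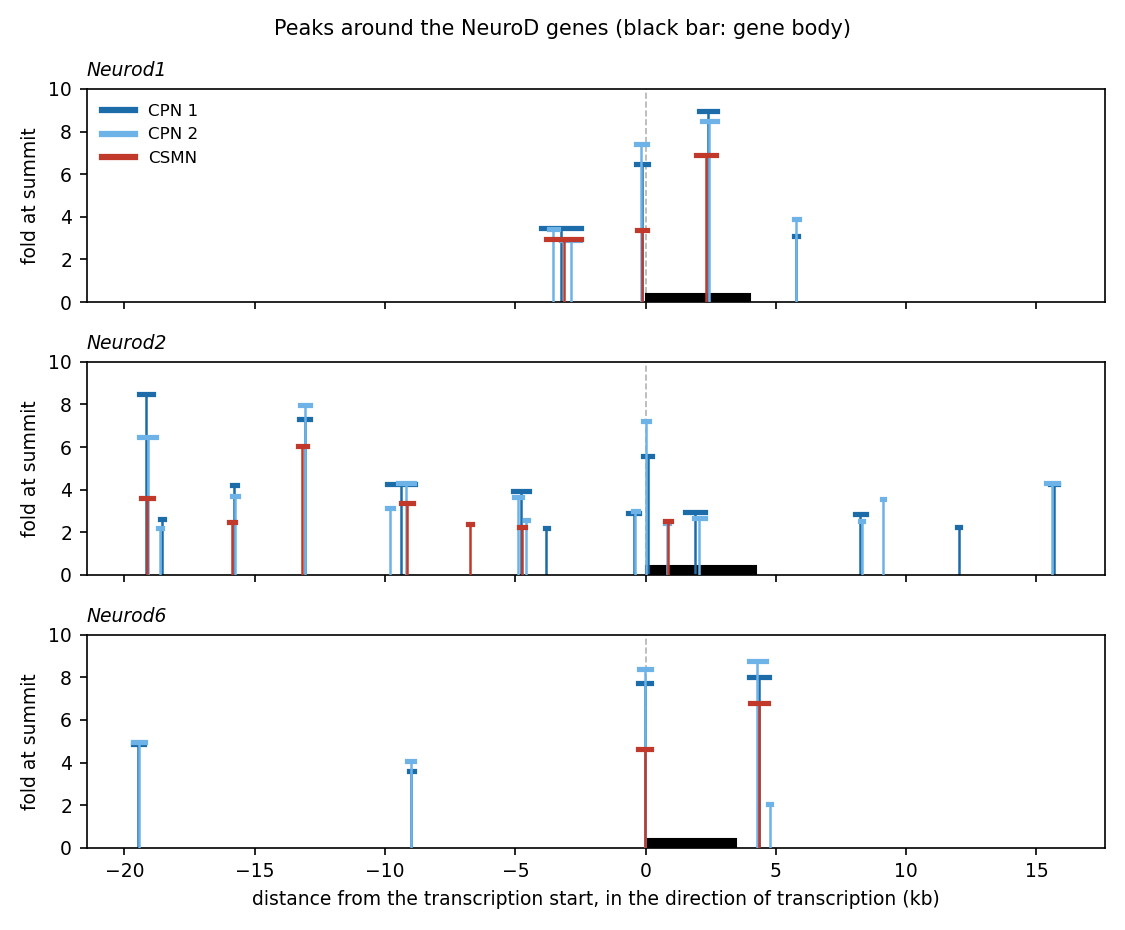
Peaks around Neurod1, Neurod2 and Neurod6 by distance from the transcription start in the direction of transcription (horizontal axis, kb) and authors' fold at the summit (vertical axis). Horizontal bars span each peak, vertical lines stand at the midpoint of each peak and the black bar is the gene body. At position 0 Neurod2 shows both CPN peaks (5.6 and 7.21) without a CSMN peak, and the other 2 genes show all 3.

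Bhlhe22, a bHLH repressor needed for the corticospinal tract to form in mice, lies at chr3:18054325-18057514 and had 3 of its 4 regions in all lists. A region of 2066 bp, chr3:18053925-18055990, covered the left end of the gene with folds of 5.82 (CPN 1), 6.82 (CPN 2) and 5.69 (CSMN). In CSMN a region 4246 bp to the left, chr3:18049699-18050079, had a higher fold than the region over the gene end, 6.26 against 5.69. Its folds in CPN were 5.54 and 6.36, below those of the region over the gene end. The region to the left ranked at 41.9 and 49.1 in CPN and at 78.3 in CSMN, 32.7 points above the CPN mean where the CPN lists were 7.18 apart. The region over the gene end was also higher in CSMN, at 74.6 against 45.3 and 53.1. A region between them, chr3:18052489-18052781, went the other way, with ranks of 14.6 and 29.1 in CPN and 6 in CSMN. The CPN-only region chr3:18042280-18042407, 11918 bp to the left, had folds of 3.12 and 4.09.

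Emx1, at chr6:85187931-85204463 on the plus strand, had 4 common regions, of which 3 ranked lower in CSMN than in both CPN lists, 2 of them by more than the gap between those lists. Over the series 40% of the 62435 common regions ranked below both, and 20501 did so by more than that gap. Its start region, chr6:85187133-85188700, had folds of 6.77 (CPN 1), 5.47 (CPN 2) and 4.15 (CSMN), and it was the strongest of the gene in CSMN. The CSMN rank of 59.2 lay above both CPN ranks of 54.3 and 40, but by less than the gap between them. The region chr6:85190114-85190798 ranked lower by less than its own CPN gap, near the bottom of the ranks in all 3. The largest difference, 22.2 points against a CPN gap of 9.24, was at chr6:85206841-85207375, 2378 bp past the 3′ end, with folds of 6.83, 5.99 and 2.85. Within the gene chr6:85193297-85194251 had folds of 6.21, 4.9 and 2.72. By −log10 p 3 of the 4 regions ranked below both CPN lists and none above. The CPN-only regions chr6:85218812-85219340 (2.93 and 2.57) and chr6:85223829-85224125 (2.9 and 2.85) both overlapped the neighbouring gene Sfxn5, and 4 weak regions were in CPN 1 alone.

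The 2 glutamate transporter genes differed at their starts. The Slc17a7 start, at the left end of chr7:45163921-45176139 on the plus strand, had a single weak peak, chr7:45163811-45163936, in CPN 2 alone, with a fold of 2.55 and a −log10 q of 5.44. In the printed stretch this peak held the 3 copies of GGGCGG and not the E-box CAGGTG at -177. A strong region common to all lists lay 1324 bp upstream, at chr7:45161905-45162597, with folds of 13.9 (CPN 1), 12.7 (CPN 2) and 7.34 (CSMN). The strongest region of the window, chr7:45154024-45155176, had 17.1, 16.1 and 11.7 and overlapped the neighbouring genes Aldh16a1 and Pih1d1. Both ranked high everywhere: the nearer one at 86.6, 82.8 and 83.4, the farther one at 92.1, 90 and 94.7.

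Downstream of Slc17a7 the order changed. The region chr7:45182144-45182737, 6005 bp past the 3′ end, had folds of 9.52 and 9.14 in CPN and 3.48 in CSMN. Its rank was 72.5 and 69.1 in CPN and 47.6 in CSMN, 23.2 points under the CPN mean where the CPN lists were 3.31 apart, the largest such drop among the 62 common regions. A weak region in the gene, chr7:45174617-45175209, moved the other way, with folds of 2.77, 2.65 and 2.73 and a CSMN rank of 24.2 above CPN ranks of 4.12 and 2.16. The single CPN-only region, chr7:45167721-45168068 in the gene body, had 3.77 and 3.01. In lists of equal length it was no longer counted, and 1 CSMN-only region was. A further 5 regions were in CPN 1 alone and 3 in CPN 2 alone.

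Slc17a6 lies at chr7:51621830-51671126 on the plus strand and had a peak over both of its listed start sites in all lists. The first start region, chr7:51621583-51622504, had folds of 5.3 (CPN 1), 5.92 (CPN 2) and 4.77 (CSMN). The second listed start, at position 51624637, lay in chr7:51624282-51624841, with 4.2, 3.79 and 3.59. The strongest region, chr7:51662389-51662904 far inside the gene, had 9.83, 8.77 and 6.42. The 2 CPN-only regions were upstream and weak, chr7:51603907-51604045 (3.35 and 4.24) and chr7:51618513-51618672 (3.09 and 3.36).

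All 6 common regions of Slc17a6 ranked higher in CSMN than in both CPN lists, and each by more than the gap between CPN 1 and CPN 2. Over the series 42.7% of the 62435 common regions ranked above both CPN lists in CSMN and 40% below both. By more than the gap between the CPN lists, 21530 ranked above and 20501 below. The differences from the CPN mean ran from 8.65 to 44.3 points, with a median of 19.9, and the order by −log10 p gave the same 6 of 6. The widest was at chr7:51632627-51633754 in the gene body, with folds of 4.74 and 4.53 in CPN and 5.64 in CSMN, where the ranks were 32.2, 28 and 74.4. These 6 regions lie in 1 gene and are not independent, and they were singled out among 9 genes after their values were seen.

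Over all 9 genes the ranks showed no common direction. Of the 62 common regions 28 ranked above both CPN lists in CSMN, 25 below both and 9 between them. The median difference was 0.746 points, against 0.323 in the series, and the median gap between the CPN lists was 5.23 points. The counts by −log10 p were 23 above and 31 below, with 41.6% and 42.2% in the series. Below both were 3 of 4 at Emx1, 3 of 5 at Neurod2, 10 of 23 at Tcf4 and 6 of 12 at Camk2a, which also had 4 above. Above both were 2 of 3 at Neurod1 and at Bhlhe22 and 2 of 4 at Slc17a7.

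**Figure D4:**
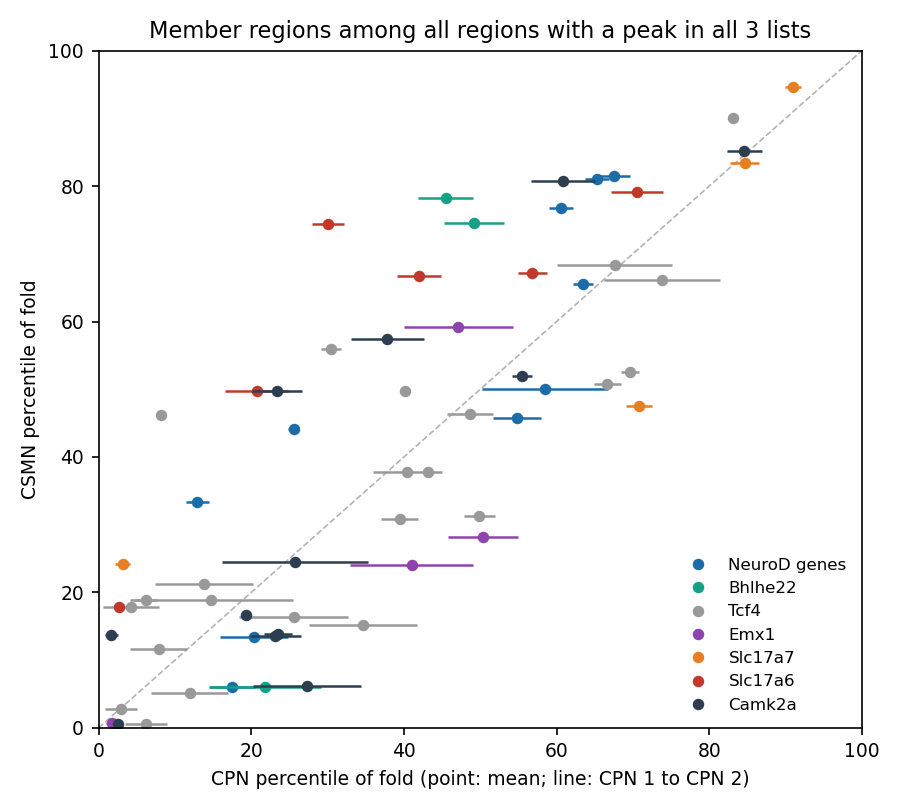
Percentile of fold among the 62435 regions with a peak in all 3 lists, in CSMN (vertical axis) against CPN (horizontal axis, point at the mean and line from CPN 1 to CPN 2), for the 62 regions of the 9 genes. The 6 Slc17a6 points lie above the diagonal, and 3 of the 4 Emx1 points lie below it.

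Tcf4, the E protein that pairs with the NeuroD factors, spans 345 kb at chr18:69343429-69687967 and carried 92 regions. The strongest in every list covered chr18:69343999-69344616, just inside the left end of the gene, with folds of 12.2 (CPN 1), 13 (CPN 2) and 9.45 (CSMN). Its rank was 82.5 and 83.8 in CPN and 90 in CSMN. Along the gene, 3 of 15 regions were common from 20 kb left of that end to 80 kb right of it. The next 100 kb had 6 of 26, the 100 kb after that 11 of 30 and the last stretch 3 of 21. Whether these shares differ was not tested. The CSMN rank was below both CPN ranks at 10 of the 23 common regions and above both at 7, and by −log10 p at 14 and 4. The peaks of Tcf4 numbered 61 (CPN 1), 80 (CPN 2) and 29 (CSMN), and 27 of its regions were in CPN 2 alone.

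CPN-only regions of Tcf4 numbered 26. The strongest by the lower of its CPN folds was chr18:69415525-69416113, with 6.04 and 7.86, and next came chr18:69500846-69501341, with 5.74 and 6.39. By −log10 q (46.9 and 44) the latter took rank 263 of all 39731 CPN-only regions, the top 0.662%. It was 1 of 4 CPN-only regions in a row from position 69500189 to 69502586, a cluster noticed after the values were seen. The others in it had folds of 3.43 and 3.84, of 2.42 and 3.25, and of 3.03 and 4.06. The next region to the right, chr18:69507860-69508082, was also CPN-only, with folds of 5.01 and 7.7. The CSMN-only regions were weak, chr18:69436633-69436755 at a fold of 2.43 and chr18:69564710-69564946 at 2.17.

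Camk2a lies at chr18:60925307-60988152 and had 26 regions, 12 of them common, 5 CPN-only and 3 CSMN-only. The region with the highest fold in every list, chr18:60977839-60978676 inside the gene, had folds of 12.1 (CPN 1), 14.4 (CPN 2) and 7.85 (CSMN) and ranked alike, at 82.3, 86.9 and 85.2. The left end of the gene was covered by chr18:60925025-60925998, with 8.21, 7.24 and 6.76, where the CSMN rank of 80.8 lay above 65 and 56.7. Of the 12 common regions, 6 ranked below both CPN lists in CSMN and 4 above both. All 3 CSMN-only regions were weak: chr18:60934431-60934686 and chr18:60952889-60953075 in the gene had a fold of 2.32, and chr18:60995135-60995356 to the right had 2.5. The strongest CPN-only regions were chr18:60982076-60982218, with 4.16 and 5.19, and chr18:60905479-60905797, with 3.32 and 4.54. In lists of equal length Camk2a had 3 CPN-only and 6 CSMN-only regions, so the order of these classes turned.

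**Figure D5:**
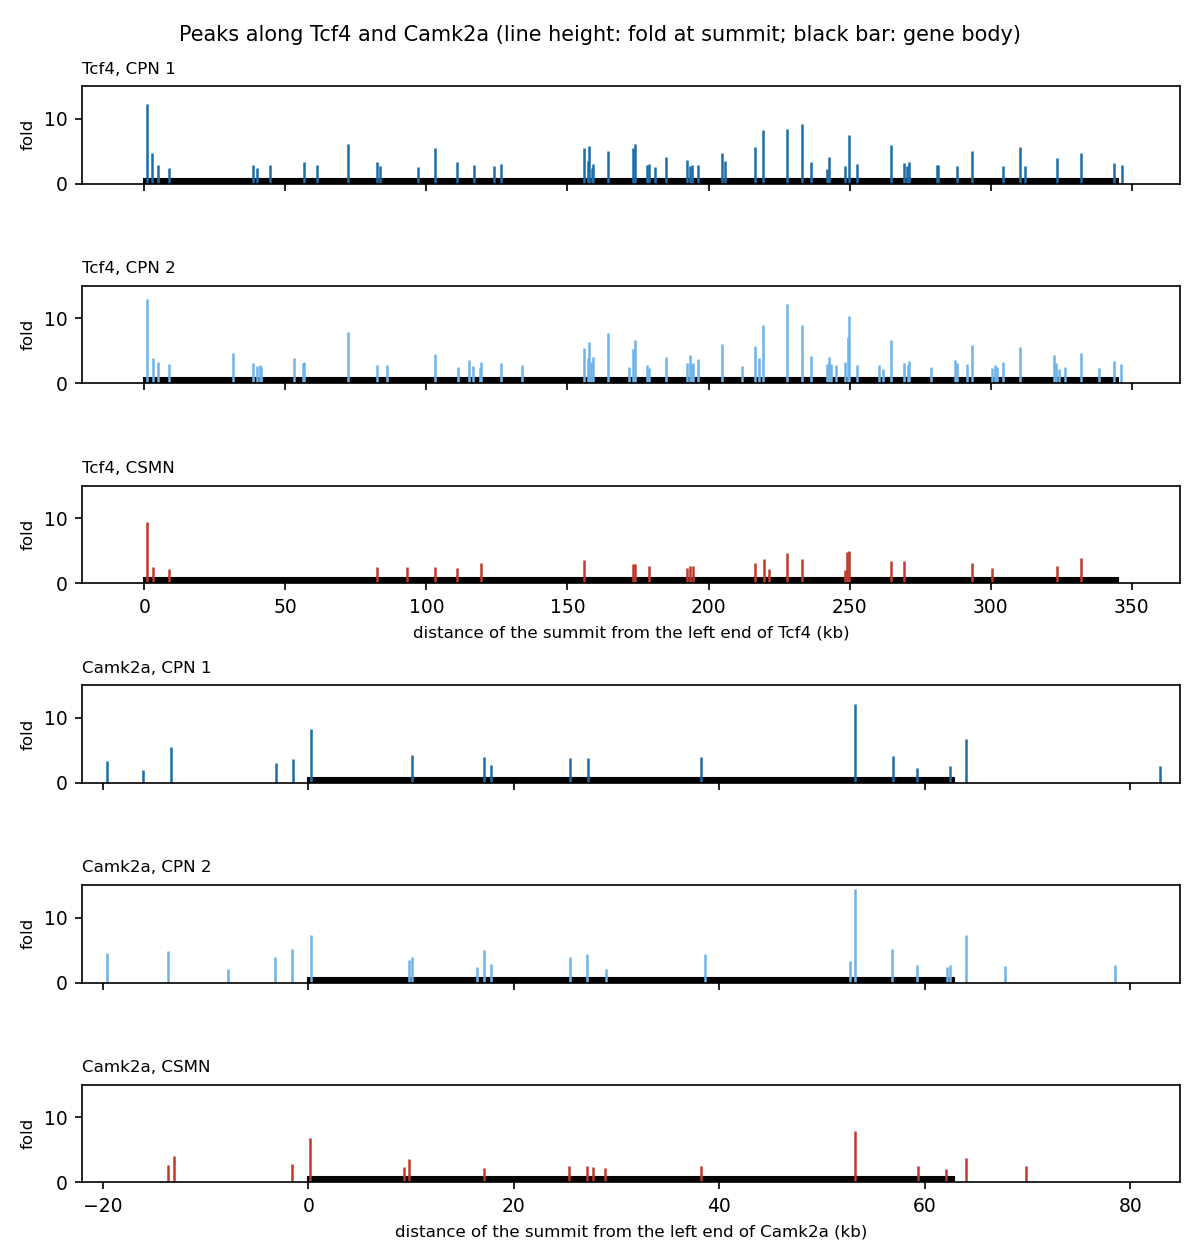
Peaks along Tcf4 and Camk2a in each list, by distance of the summit from the left end of the gene (horizontal axis, kb) and authors' fold at the summit (vertical axis, line height); the black bar is the gene body. Tcf4 has 61, 80 and 29 peaks in CPN 1, CPN 2 and CSMN, and Camk2a has 18, 24 and 17.

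Lists of related genes were read the same way at their starts or gene ends, where 64.1% of all protein-coding genes had a peak in all 3 lists. Of 18 other bHLH factors and partners, 16 had one in all 3, among them the E protein gene Tcf3 (17.3, 14.6 and 11) and Atoh7 (17.2, 13.4 and 7.2). The other two, Nhlh1 (3.83 and 3.6) and Nhlh2 (3.3 and 2.9), which encode neuronal bHLH factors, had peaks in CPN alone. Of 8 other vesicular transporter genes 6 had a peak at the start or a gene end in all 3 lists, Slc18a1 being read at its gene ends. Slc18a3, the acetylcholine transporter (3.67 and 3.36), and Slc30a3, the zinc transporter of glutamate vesicles (3.48 and 3.02), had none in CSMN, while Slc18a1 had 20.2, 22.5 and 15.6 and Sv2b 7.98, 7.6 and 4.69. Of 9 genes of calcium/calmodulin kinases and their inhibitors 8 had it in all lists, Camk2g with 17.1, 15.9 and 8.55, and Camk4 had no peak at either gene end in any list.

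CPN-only shares in these lists were 19.1% of 162 regions for bHLH factors, 18.2% of 77 for transporters and 14.9% of 161 for kinases and their inhibitors. CSMN-only shares were 4.94%, 1.3% and 9.32%, where the series had 11.8% and the windows of all protein-coding genes 9.61%. The lists of markers of other cell types were also below these values, with 4.76% for interneurons, 2.99% for astrocytes, 6.45% for oligodendrocytes, 5.77% for microglia and 4.29% for endothelium, so a low CSMN-only share was not particular to the 9 genes. The CPN-only shares of the marker lists were, in the same order, 20.2%, 16.4%, 19.4%, 15.4% and 32.9%. At the 9 genes the share was 25.7% and in the series 19.4%, so the endothelial list lay above the 9 genes. Markers of other cell types that a sort could hold were not absent. All 7 interneuron and all 5 endothelial markers had a peak at the start or gene end in all 3 lists, as did 3 of 5 astrocyte, 3 of 5 oligodendrocyte and 2 of 5 microglia markers. The defining markers Gfap and Aqp4 of astrocytes, Mog and Sox10 of oligodendrocytes, and Csf1r and C1qa of microglia had none in any list, and Cx3cr1 of microglia had 1 of fold 2.43 in CPN 1. The part of other cells in the regions above was not tested.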

How the data were processed

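ATAC-seq peak lists of CPN 1, CPN 2 and CSMN were used as deposited. The build mm10 and the tools MACS2 2.2.7.1, BWA 0.7.17 and bedtools 2.29.2 come from the submitters' processing notes, which assign them no roles. Read filters, duplicate handling and any shift of reads are not given in the sources used here. Peak names carry 1 library each, so calling by the authors was taken to be per library. Each deposited peak has a score, a fold enrichment ratio at its summit, and p and q values as −log10. The authors' score equalled 10 times −log10 q cut to a whole number, apart from a difference of 1 in 84, 65 and 33 peaks.

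Peaks overlapping by at least 1 bp were merged and assigned to every gene window they touched. Gene bodies came from a RefSeq table of GRCm38.p6 without strand or exons, so exons, introns and UTRs were not distinguished. Start sites, strand and sequences came from the RefSeq promoter table, which matched 6 of the 9 genes. Folds were compared within a list, or as ranks over the regions common to all lists. No p-value was computed.

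The 9 genes and all lists were chosen with earlier results of these data known. All 9 were named, with their strongest region, every CSMN-only region and the 2 strongest CPN-only regions. In the gene lists at most 4 genes were named, first those lacking a gene-end peak in some library and then those with the highest CPN 1 fold. Other regions were named after their values were seen. The results of 1 further gene list are not reported here. No ranking of genes by likeness was made, because 3 libraries give no pattern across conditions. Alternatives were a −log10 q of at least 5, lists of equal length, other windows, 50% overlap, rank by −log10 p, and leaving out a CPN library or Tcf4. Analyses used Python 3.11.15, pandas 2.3.3, numpy 2.4.6 and matplotlib 3.10.9. Overlaps tested on simulated intervals gave 0 differences from bedtools 2.31.1 or direct counting.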

Additional observations from a re-analysis of the deposited data

How the results depend on the processing

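CPN-only regions outnumbered CSMN-only regions at the 9 genes together in every setting run, but both counts moved. The series had the same order in every setting except lists of equal length, so the order alone was not particular to these genes. CSMN-only regions, 6 as reported, were 2 at a −log10 q of at least 5, 15 in lists of equal length and 10 when a peak had to be overlapped by at least 50%, and 8 to 13 when a CPN library was left out. The first 3 of these counts were 1.74%, 12% and 5.35% of the regions at these genes, against 4.05%, 22.2% and 12.6% in the series. CPN-only regions, 46 as reported, were 29 in lists of equal length, 30 in gene bodies alone, 20 without Tcf4, and 73 to 87 when a CPN library was left out and the class rested on 1 list. Regions in all 3 lists, 62 as reported, were 95 with 50 kb on either side and 39 without Tcf4. CSMN peaks in the windows, 76 as reported, were 48 at the higher q and 118 with 50 kb, and CPN 2 peaks, 159 as reported, were 103 in lists of equal length. Of 63 alternatives for totals 49 stayed within 1.5 times, and of 267 for single genes 209 did. In lists of equal length CSMN-only regions exceeded CPN-only regions at Camk2a (6 against 3) and at Slc17a7 (1 against 0). No paired analysis was possible because CSMN had 1 library and no test was made. Peak lists without read totals do not give the depth, and a shallower CSMN library cannot be told apart from fewer open sites.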
